A study of Homo sapiens with 15 samples.

Results

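The 39 protein-coding HOX genes of the human symbol table, their antisense transcripts and the long non-coding RNAs of the HOX clusters were followed across 5 ovarian cancer cell lines. A gene was taken where its symbol begins with HOXA, HOXB, HOXC or HOXD, or is HOTAIR, HOTTIP, HOTAIRM1 or HAGLR. This gave 35 of the 16604 genes measured, 15 in the HOXA cluster, 11 in HOXB, 5 in HOXC and 4 in HOXD. Of the 35, 27 code for protein (11 of 11 HOXA genes, 9 of 10 HOXB genes, 5 of 9 HOXC genes and 2 of 9 HOXD genes) and 8 are non-coding. The other 21 symbols of the rule, HOTAIR and HOTTIP among them, are not analysed here.

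RNA was sequenced in 15 samples, 3 biological replicates of each line. Ovcar4Parental is OVCAR4, an established platinum-sensitive line of high-grade serous ovarian cancer. Exposure of this line to stepwise higher doses of a platinum drug, which damages DNA by crosslinking it, gave the resistant lines Ov4Cis (selected with cisplatin) and Ov4Carbo (selected with carboplatin). The resistant lines Ov4Carbo4 and Ov4Carbo7 each grew from 1 single cell of Ov4Carbo, so each stands for 1 clone. All lines grew in DMEM with serum, and no label states that drug was present at harvest. Values are log2 RPKM (read number relative to gene length and library size, adjusted by the authors for gene length and GC content). Values of the 3 replicates are given in the order of their numbers, errors of means are SDs with n = 3, and the depth behind each value is unknown. The labels do not say how far apart the replicate cultures were, so the p-values measure the spread between these samples.

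HOX genes code for homeodomain transcription factors that set position along the body axis, and their order in each cluster follows the order in which they are used, from the anterior low-numbered groups to the posterior high-numbered ones. Posterior HOXA genes pattern the Müllerian duct, from which the oviduct, uterus and upper vagina form, and several HOX genes are known to be expressed in ovarian cancers. Antisense and intergenic transcripts such as HOTAIRM1, HOXA11-AS and HAGLR are made from the same clusters, and Polycomb and Trithorax complexes are known for keeping HOX genes off or on.

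For 2 pairs of genes on opposite strands the promoter window of the coding gene of each is shown so that the closeness of the pair can be seen. Both windows are from RefSeq (GRCh38.p14), run from 250 bases before the start of the transcript over its first 50 bases, and are written 5′ to 3′ on the strand of the named gene. Capitals mark the bases that also lie in the 1 window of the gene on the other strand named here. The HOXD1 window (chr2:176188418-176188717, plus strand) shares 195 bases with a window of HAGLR (chr2:176188523-176188822, minus strand). The start sites of these windows lie 96 bases apart. Another HAGLR window (chr2:176188220-176188519) shares 102 bases with that of HOXD1, left in lower case, and its start site lies 399 bases away. The HOXA11 window (chr7:27185183-27185482, minus strand) shares 275 bases with that of HOXA11-AS (chr7:27185158-27185457, plus strand), and their start sites lie 176 bases apart.
HOXD1: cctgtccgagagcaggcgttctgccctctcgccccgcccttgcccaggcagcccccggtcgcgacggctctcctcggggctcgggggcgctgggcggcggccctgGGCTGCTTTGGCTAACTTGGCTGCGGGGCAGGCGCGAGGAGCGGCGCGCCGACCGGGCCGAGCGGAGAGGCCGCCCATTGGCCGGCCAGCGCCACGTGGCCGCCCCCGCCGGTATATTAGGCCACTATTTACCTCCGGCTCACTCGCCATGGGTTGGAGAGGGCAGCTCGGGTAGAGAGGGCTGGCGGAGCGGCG
HOXA11: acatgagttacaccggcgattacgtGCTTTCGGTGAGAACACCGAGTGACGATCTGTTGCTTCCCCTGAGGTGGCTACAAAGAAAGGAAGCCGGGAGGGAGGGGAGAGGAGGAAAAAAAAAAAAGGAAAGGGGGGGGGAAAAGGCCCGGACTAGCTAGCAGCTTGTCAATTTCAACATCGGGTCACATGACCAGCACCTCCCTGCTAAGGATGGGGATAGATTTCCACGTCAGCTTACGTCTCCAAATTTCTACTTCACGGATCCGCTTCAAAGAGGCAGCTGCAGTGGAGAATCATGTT
The HOXD1 window holds 36 CG pairs and the HOXA11 window 13, against a median of 14 over all 35116 promoter windows of the table. Windows were found for 18 of the 35 genes and transcripts, several each for HOXA3 and HAGLR. No coding HOXB gene was among them, and HOXC4 was the only HOXC gene. The letters TGATTNAT, which a HOX protein and its PBX partner are known to bind, occurred on either strand in 1 of the 28 windows of these genes, that of HOXA2, and in 2.82% of all windows. TAATTA, the core bound by many homeodomains, occurred in 1 window, that of HOXA-AS2, and in 4.84% of all windows. AGGTCA, known as a retinoic acid receptor half-site, occurred in 0 of the 28 and in 13.8% of all.

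The clusters differed in which lines were high. Most HOXA genes were highest in Ov4Cis or Ov4Carbo7, HOXB5 to HOXB9 were lowest in the 2 single-cell lines, HOXD1 and HAGLR were highest in Ov4Cis and next in Ov4Carbo4, and HOXC genes were low in every line. A gene was called different between lines at a Benjamini-Hochberg adjusted p under 0.05 in limma, adjusted over all genes, together with a log2 fold change of 1 or more in either direction. Of the 35 members, 33 were called in at least 1 of 8 comparisons, against 38.6% of all genes, and the F-test across the 5 lines gave an adjusted p under 0.05 for all 35, against 76.9% of all genes. The exceptions among the calls were HOXA7 and HOXA9. HOXA7 had line means from 0.93 to 1.66 and HOXA9 from -0.34 to 0.74. Of the 35, 30 reached a mean of log2 RPKM 0 in at least 1 line. The other 5, HOXA6, HOXB-AS3, HOXC4, HOXC8 and HOXD-AS2, stayed below 0 in every line mean.

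**Figure D1:**
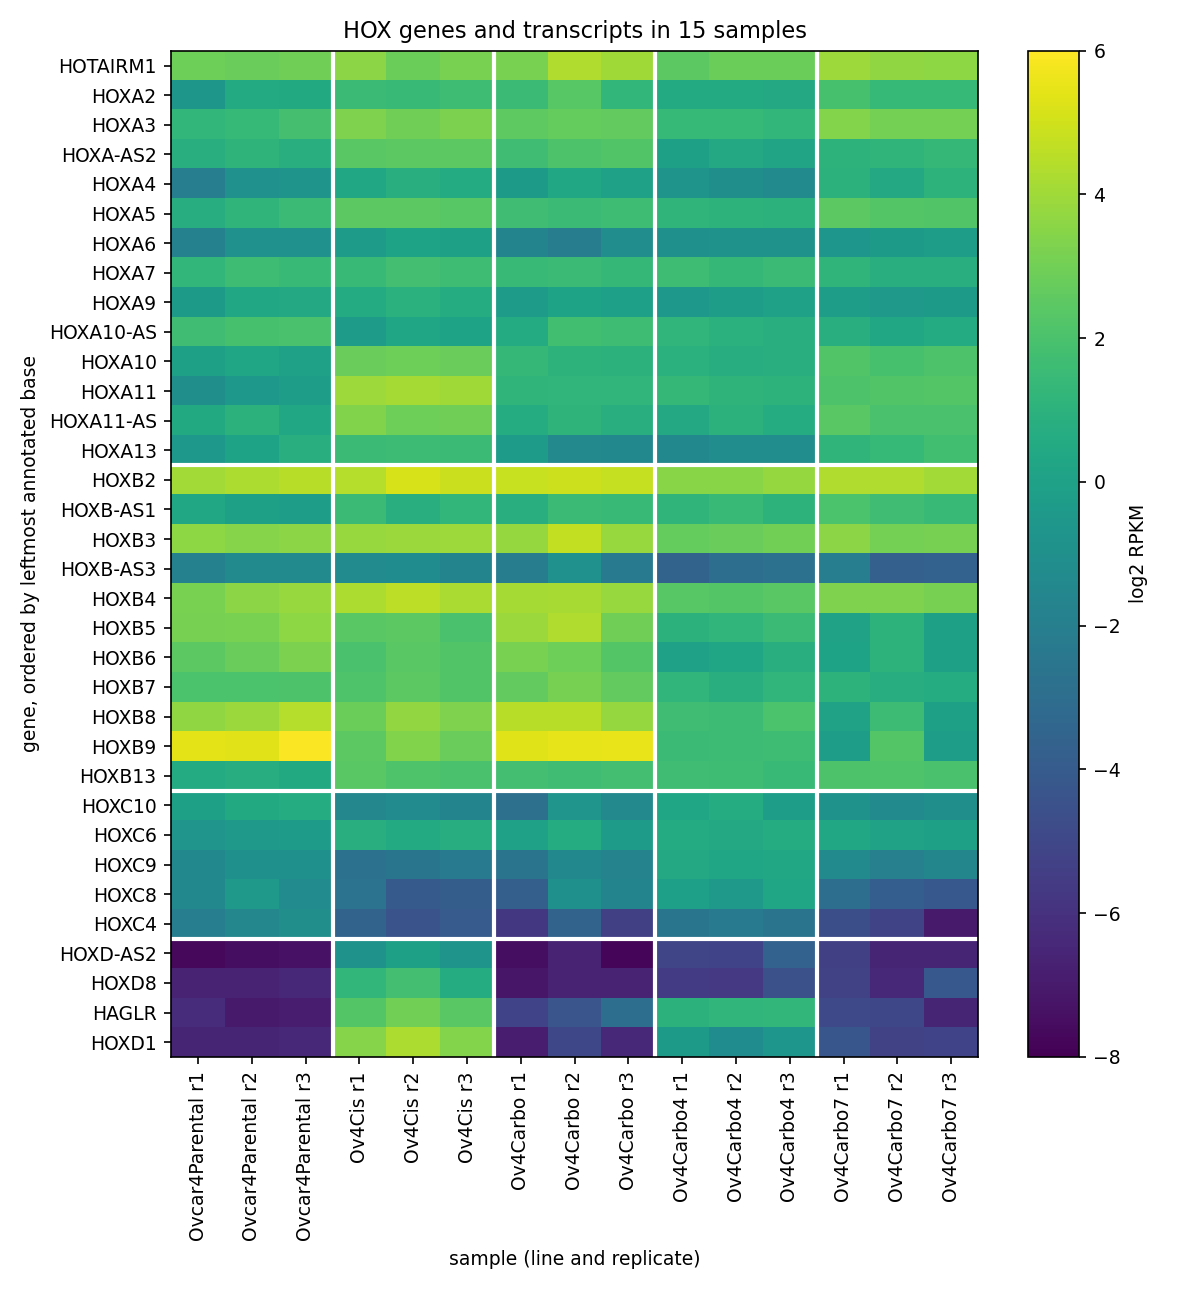
Log2 RPKM (colour) of the HOX genes and transcripts reported (vertical axis, by cluster and leftmost annotated base) in the 15 samples (horizontal axis, by line and replicate). HOXB2 to HOXB9 are the brightest block in the parental and Ov4Carbo samples, HOXB5 to HOXB9 are dimmer in Ov4Carbo4 and Ov4Carbo7, and the HOXD genes are visible in Ov4Cis and, for HOXD1 and HAGLR, in Ov4Carbo4.

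Against the parental line, 23 of the 35 were called in Ov4Cis (17 higher and 6 lower), where 15.9% of all genes were called (8.46% higher and 7.41% lower). In Ov4Carbo 12 were called (9 higher, 3 lower), against 12.7% of all genes (5.76% higher, 6.93% lower). In Ov4Carbo4 the count was 16 (9 higher, 7 lower), against 15.1% of all genes (7.43% higher, 7.70% lower). In Ov4Carbo7 it was 23 (13 higher, 10 lower), against 17.0% of all genes (9.26% higher, 7.75% lower). On this log2 RPKM scale the member share thus lay above the share of all genes in each of these 4 comparisons. For Ov4Cis, Ov4Carbo, Ov4Carbo4 and Ov4Carbo7 in turn, the median log2 fold change of the members was 0.86, 0.43, -0.13 and 0.63, beside 0.04, 0.03, 0.07 and 0.02 for all genes. These comparisons share the parental samples. Adding 1 to each RPKM before the logarithm shrinks changes between low levels. With it, 12, 1, 6 and 10 members were called in the same order of lines, against 7.58%, 4.76%, 6.34% and 7.79% of all genes. The 1 of 35 in Ov4Carbo lay below the share of all genes there. Among genes with a mean of at least log2 RPKM 1, which hold 20 of the members, the counts were 10, 7, 8 and 13, against 8.21%, 6.06%, 8.07% and 9.42% of those genes. HOXA11, HOXB13 and HOXB-AS1 were called higher in all 4 resistant lines, as were 1.73% of all genes. No member was called lower in all 4, against 1.65% of all genes. With 1 added to each RPKM, none of these genes reached the fold limit in all 4 lines. In Ov4Carbo and Ov4Carbo4 HOXA11 then rose by 0.95 each, HOXB13 by 0.80 and 0.70, and HOXB-AS1 by 0.73 and 0.71.

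The single-cell lines also differed from the line they came from. Between Ov4Carbo4 and Ov4Carbo 23 members were called (8 higher, 15 lower), against 14.2% of all genes (7.58% higher, 6.64% lower). For Ov4Carbo7 against Ov4Carbo the count was 11 (5 higher, 6 lower), against 13.3% (7.72% higher, 5.62% lower). Between the 2 single-cell lines 18 members were called (10 higher in Ov4Carbo7, 8 lower), against 20.9% (11.1% higher, 9.86% lower). Ov4Cis differed from Ov4Carbo in 12 members (9 higher, 3 lower), against 13.8% (7.88% higher, 5.90% lower). With 1 added to each RPKM, the counts of these 4 comparisons in the same order were 11, 6, 5 and 9, against 5.45%, 4.96%, 10.5% and 5.77% of all genes. Among genes with a mean of at least log2 RPKM 1 they were 13, 7, 9 and 5, against 8.27%, 7.07%, 13.7% and 6.98%.

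Sample titles carry 2 series of numbers, which the labels do not call a batch: all Ov4Carbo4 and Ov4Carbo7 samples and replicate 1 of Ov4Carbo are in the first, all others in the second. Ov4Cis against the parental line and Ov4Carbo7 against Ov4Carbo4 lie within a series, and for a single-cell line against the parental line, series and line cannot be told apart except through replicate 1 of Ov4Carbo. Over the members its root mean square differences from replicates 2 and 3 of its line were 0.99 and 0.75 log2 units, beside 0.74 between those. Of 8 serous ovarian markers, 7 had a mean of log2 RPKM 0 or more in the parental line and Ov4Carbo, 6 in Ov4Carbo4 and Ov4Carbo7 and 3 in Ov4Cis. PAX8, SOX17 and EMX2 were among them in every line, WT1 was below 0 in every line, and MUC16, MSLN, FOLR1 and KRT7 were below 0 in Ov4Cis. Their summed RPKM ran from 521 to 628 in the parental samples, 224 to 355 in Ov4Cis, 310 to 338 in Ov4Carbo, 377 to 386 in Ov4Carbo4 and 264 to 274 in Ov4Carbo7. Summed RPKM of 5 epithelial markers ran from 459 to 538 in the parental samples and from 95.7 to 121 in Ov4Cis, where CDH1 and KRT19 were below log2 RPKM 0. The part of either list in the HOX results was not tested. Of 4 leukocyte markers, 1 is in the table and was below 0 in every line, and the 5 fibroblast markers of the table summed to 4.42 to 14.6 RPKM, highest in Ov4Carbo4.

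The central and posterior HOXB genes fell in both lines grown from single cells of Ov4Carbo. Summed RPKM of HOXB5 to HOXB9 was 86.2 ± 18.1 in the parental line, 91.5 ± 12.3 in Ov4Carbo and 32.3 ± 6.97 in Ov4Cis, but 12.4 ± 1.55 in Ov4Carbo4 and 8.35 ± 4.53 in Ov4Carbo7. HOXB2 to HOXB4, the neighbours at the anterior end, summed to 43.1 RPKM in the parental line, 63.1 in Ov4Carbo, 64.6 in Ov4Cis, 24.7 in Ov4Carbo4 and 38.0 in Ov4Carbo7. In these bulk samples fewer expressing cells and less RNA per cell cannot be told apart. HOXB13, at the posterior end, was higher in the resistant lines.

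HOXB9, a posterior gene used in the trunk and mammary gland, was the most highly expressed HOX gene of the parental line. Its values were 5.45, 5.38 and 5.89 in the parental samples, 5.33, 5.49 and 5.53 in Ov4Carbo and 2.47, 3.33 and 2.82 in Ov4Cis. They were 1.54, 1.60 and 1.67 in Ov4Carbo4 and -0.21, 2.25 and -0.21 in Ov4Carbo7. All samples of the parental line and Ov4Carbo lay above all samples of the other lines, and those of Ov4Carbo4 and Ov4Carbo7 overlapped, since replicate 2 of Ov4Carbo7 was above the Ov4Carbo4 samples. HOXB9 fell by 3.85 in Ov4Carbo4 against Ov4Carbo (SE 0.50, limma adjusted p = 0.000102) and by 4.84 in Ov4Carbo7 (adjusted p = 3.11e-05). Without replicate 2 of Ov4Carbo7, whose value was 2.25, the latter was -5.66. Replicate 1 of Ov4Carbo, which shares the title series of the single-cell lines, was at 5.33.

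HOXB8, next to HOXB9, gave 3.68, 3.91 and 4.44 in the parental samples, 4.48, 4.47 and 3.77 in Ov4Carbo and 2.86, 3.75 and 3.30 in Ov4Cis. It gave 1.73, 1.61 and 2.01 in Ov4Carbo4 and 0.06, 1.60 and -0.06 in Ov4Carbo7. Every single-cell-line sample thus lay below every other sample, with the same replicate of Ov4Carbo7 the highest of its line. The changes against Ov4Carbo were -2.45 (SE 0.40, adjusted p = 0.00045) and -3.70 (adjusted p = 3.72e-05). Ov4Carbo7 was also lower than Ov4Carbo4, by a log2 fold change of -1.25 (adjusted p = 0.0192), but this call was lost without replicate 3 of Ov4Carbo4 (-1.13, adjusted p = 0.064), replicate 1 of Ov4Carbo7 (-1.01, adjusted p = 0.0804) or replicate 3 of Ov4Carbo7 (-0.95, adjusted p = 0.0846). In Ov4Cis HOXB8 was not called lower than in the parental line (-0.71, adjusted p = 0.191), while HOXB9 was (-2.70, SE 0.50, adjusted p = 0.00105).

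HOXB5, a central gene of the trunk, gave 3.11, 3.18 and 3.60 in the parental samples, 3.89, 4.31 and 2.97 in Ov4Carbo, 2.41, 2.50 and 2.00 in Ov4Cis, 1.00, 1.22 and 1.55 in Ov4Carbo4 and 0.08, 1.06 and -0.02 in Ov4Carbo7. HOXB6, its neighbour, gave 2.47, 2.80 and 3.25 in the parental samples, 3.21, 2.91 and 2.26 in Ov4Carbo, 2.00, 2.40 and 2.22 in Ov4Cis, -0.01, 0.26 and 0.75 in Ov4Carbo4 and 0.11, 1.03 and -0.02 in Ov4Carbo7. In both genes the samples of the single-cell lines lay below all the others. Against Ov4Carbo, HOXB5 fell by 2.47 in Ov4Carbo4 (SE 0.34, adjusted p = 0.000153) and by 3.35 in Ov4Carbo7 (adjusted p = 2.84e-05), and HOXB6 fell by 2.46 (SE 0.32, adjusted p = 9.73e-05) and by 2.42 (adjusted p = 0.000138). HOXB7 gave 2.03, 2.03 and 2.11 in the parental samples, 2.62, 3.13 and 2.64 in Ov4Carbo, 2.17, 2.49 and 2.23 in Ov4Cis, 1.22, 0.83 and 1.22 in Ov4Carbo4 and 1.05, 0.71 and 0.66 in Ov4Carbo7. Its falls against Ov4Carbo were smaller, at -1.71 (SE 0.16, adjusted p = 1.1e-05) and -1.99 (adjusted p = 8.48e-06), and its single-cell-line samples also lay below all others.

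The anterior HOXB genes, used in the hindbrain and in blood progenitors, changed by less. HOXB2 gave 4.06, 4.29 and 4.52 in the parental samples, 4.43, 5.18 and 4.86 in Ov4Cis, 4.82, 4.95 and 4.75 in Ov4Carbo, 3.53, 3.53 and 3.79 in Ov4Carbo4 and 4.33, 4.33 and 4.03 in Ov4Carbo7. HOXB3 gave 3.62, 3.44 and 3.56 in the parental samples, 3.83, 3.87 and 3.94 in Ov4Cis, 3.79, 4.70 and 3.83 in Ov4Carbo, 2.68, 2.81 and 3.04 in Ov4Carbo4 and 3.54, 3.10 and 3.11 in Ov4Carbo7. HOXB4 gave 3.19, 3.54 and 3.83 in the parental samples, 4.26, 4.63 and 4.25 in Ov4Cis, 4.11, 4.17 and 3.82 in Ov4Carbo, 2.39, 2.27 and 2.40 in Ov4Carbo4 and 3.29, 3.31 and 3.14 in Ov4Carbo7. In each of these genes the Ov4Carbo4 samples lay below all others, and the Ov4Carbo7 samples overlapped the parental ones. In Ov4Carbo4 the 3 genes were called lower than in Ov4Carbo, at -1.22, -1.26 and -1.68, with SEs of 0.18, 0.21 and 0.16 and adjusted p of 0.000229, 0.000579 and 1.07e-05. The HOXB3 change was -0.97 without replicate 2 of Ov4Carbo and -0.95 with a term for the title series. In Ov4Carbo7 the changes were -0.61, -0.85 and -0.78 and were not called, with adjusted p of 0.0185, 0.0078 and 0.00261. HOXB4 differed between Ov4Carbo7 and Ov4Carbo4 by 0.90 (adjusted p = 0.000546), under the fold limit. HOXB-AS3, a low antisense transcript, ranged from -3.70 to -0.93 over the 15 samples.

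HOXB13, the most posterior HOXB gene, known from prostate and hindgut, and HOXB-AS1, an antisense transcript of the anterior end, were higher in all 4 resistant lines. HOXB13 gave 0.59, 0.74 and 0.50 in the parental samples, 2.43, 2.14 and 1.97 in Ov4Cis, 1.82, 1.70 and 1.79 in Ov4Carbo, 1.71, 1.67 and 1.50 in Ov4Carbo4 and 2.08, 2.14 and 1.99 in Ov4Carbo7. All 12 resistant samples lay above the 3 parental ones. The fold changes against the parental line were 2.96 in Ov4Cis (log2 1.57, SE 0.12, adjusted p = 6.67e-07), 2.23 in Ov4Carbo (log2 1.16, adjusted p = 2e-05), 2.03 in Ov4Carbo4 (log2 1.02, adjusted p = 3.3e-05) and 2.75 in Ov4Carbo7 (log2 1.46, adjusted p = 1.73e-06). The Ov4Carbo4 change lay near the fold limit and fell under it without replicate 1 of Ov4Carbo4 (0.98), replicate 3 of the parental line (0.96) or replicate 2 of Ov4Carbo4 (1.00 when rounded), and with a term for the title series (0.95). With 1 added to each RPKM the 4 changes were 1.13, 0.80, 0.70 and 1.04. HOXB-AS1 gave 0.40, -0.02 and -0.21 in the parental samples, 1.56, 0.83 and 1.27 in Ov4Cis, 0.78, 1.56 and 1.42 in Ov4Carbo, 1.18, 1.45 and 1.07 in Ov4Carbo4 and 2.06, 1.68 and 1.50 in Ov4Carbo7. Again every resistant sample lay above every parental one. The log2 fold changes were 1.16, 1.20, 1.18 and 1.69, with an SE of 0.25 each and adjusted p of 0.00268, 0.00298, 0.00239 and 0.000161. The Ov4Cis change was 0.99 without replicate 1 of Ov4Cis. In GENCODE v29, 29.6% of the exonic length of HOXB-AS1 overlaps other genes, HOXB2 and HOXB3 among them on the opposite strand. Whether reads were counted by strand is not given, so their reads cannot be told apart there.

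**Figure D2:**
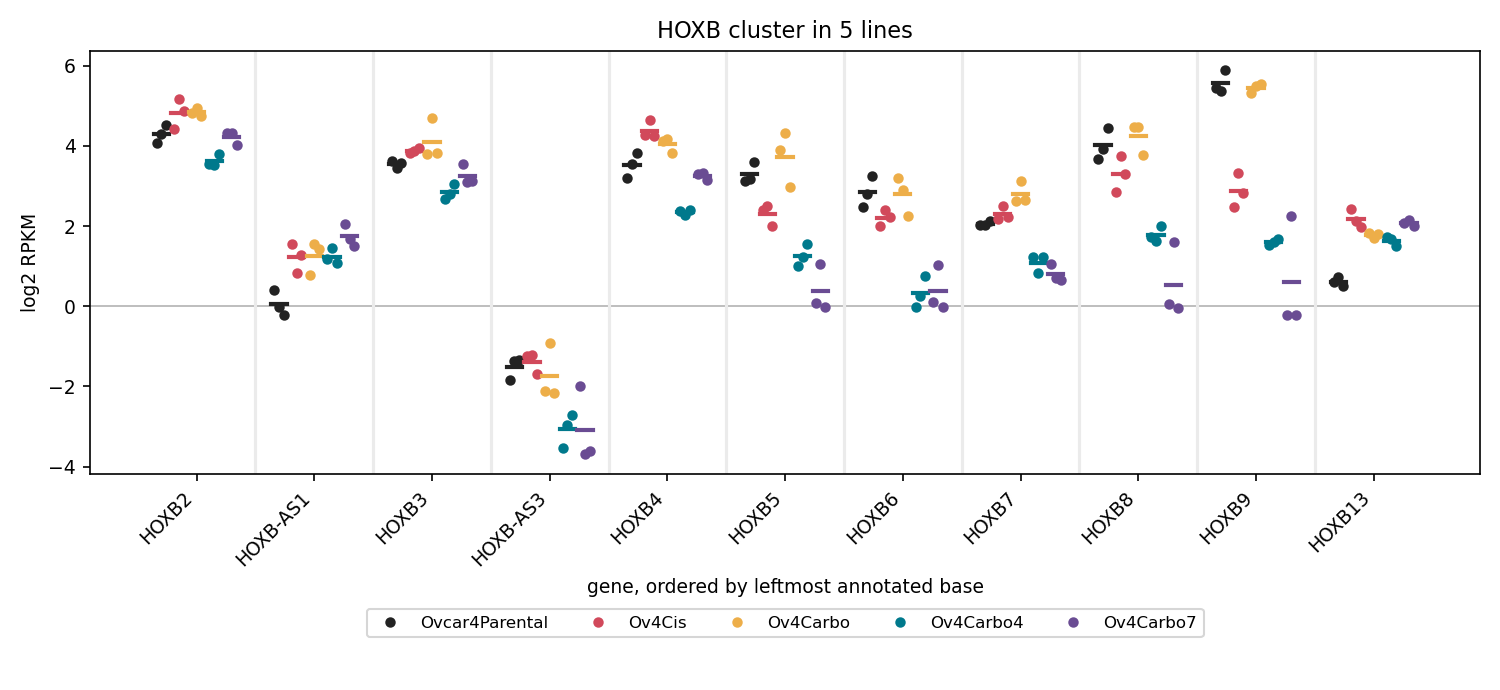
Log2 RPKM (vertical axis) of the HOXB genes and transcripts (horizontal axis, by leftmost annotated base), with 3 points per line and a bar at the mean. HOXB5 to HOXB9 lie lower in both single-cell lines than in Ov4Carbo, HOXB9 also in Ov4Cis, and HOXB13 lies higher in the 4 resistant lines than in the parental line.

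Within the cluster, HOXB8 and HOXB9 had a Pearson r of 0.95 over the 15 samples, HOXB5 and HOXB9 0.95, HOXB6 and HOXB9 0.92, and HOXB7 and HOXB9 0.80. These values describe samples that share lines and normalization. Over 10 neighbouring pairs of the cluster the median r was 0.77, with a range from -0.58 to 0.95. Of the 8 genes listed as flanking the HOXB cluster, 5 are in the table and 0 were called lower in any of the 8 comparisons. Of all genes, 5.62% to 9.86% were called lower in these comparisons, so 0 of 5 is near that share. Among the flanking genes SKAP1, a T cell adaptor gene, was higher in Ov4Cis than in the parental line (2.86, SE 0.37, adjusted p = 6e-05), and CALCOCO2, an autophagy receptor gene, was higher in Ov4Carbo7 (1.15, SE 0.19, adjusted p = 0.000388).

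The HOXD cluster was near the floor of the table in the parental line and, apart from HAGLR, in Ov4Carbo, and HOXD1 and HAGLR stood above it in Ov4Cis and Ov4Carbo4. The lowest value of any sample lay between -8.18 and -7.68, and the size of a log2 change from such a level depends on the offset used by the authors. For these genes the change on the log2(RPKM + 1) scale is therefore given too. Endothelial markers, of which 2 of 3 are in the table, were also highest in Ov4Cis and next in Ov4Carbo4. Their summed RPKM ran from 6.13 to 6.96 in the parental samples, 31.8 to 40.4 in Ov4Cis, 4.20 to 6.03 in Ov4Carbo, 20.6 to 25.1 in Ov4Carbo4 and 8.79 to 10.2 in Ov4Carbo7. CDH5, an endothelial cadherin, had line means from 2.15 to 5.13, VWF had a mean below log2 RPKM 0 in every line, and their part in the HOXD result was not tested.

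HAGLR, a long non-coding RNA that runs opposite to HOXD1, gave -6.23, -7.0 and -6.88 in the parental samples, 2.27, 3.02 and 2.39 in Ov4Cis and -5.18, -4.29 and -2.97 in Ov4Carbo. It gave 0.98, 1.20 and 1.28 in Ov4Carbo4 and -4.89, -4.98 and -6.52 in Ov4Carbo7. HAGLR thus stood above log2 RPKM 0 in all 6 samples of Ov4Cis and Ov4Carbo4 and below it in all the other 9. It was higher than in the parental line by 9.26 in Ov4Cis (SE 0.52, limma adjusted p = 5.3e-08) and by 7.86 in Ov4Carbo4 (adjusted p = 3.37e-07). With 1 added to each RPKM these were 2.78 and 1.68. Against Ov4Carbo, HAGLR was higher in Ov4Carbo4 by 5.30 (adjusted p = 1.23e-05), or 1.60 on that scale. It was lower in Ov4Carbo7 than in Ov4Carbo4 by a log2 fold change of -6.62 (adjusted p = 8.95e-07). In Ov4Carbo the change against the parental line was 2.56 (adjusted p = 0.0026), which with 1 added to each RPKM was 0.08.

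HOXD1, an anterior gene whose promoter is the first window above, gave -6.52, -6.52 and -6.37 in the parental samples, 3.45, 4.26 and 3.38 in Ov4Cis and -6.88, -4.95 and -6.45 in Ov4Carbo. It gave -0.36, -1.20 and -0.66 in Ov4Carbo4 and -4.27, -5.27 and -5.21 in Ov4Carbo7. Ov4Cis was highest and Ov4Carbo4 next, as for HAGLR, but in Ov4Carbo4 HOXD1 stayed below log2 RPKM 0 while HAGLR was above it. HOXD1 was higher in Ov4Carbo4 than in the parental line by 5.73 (SE 0.44, adjusted p = 1.15e-06) and, with 1 added to each RPKM, by 0.67, and higher than in Ov4Carbo by 5.35 (adjusted p = 3.35e-06). In Ov4Carbo7 it was called higher than in the parental line by 1.56 (adjusted p = 0.0132), which with 1 added was 0.03, and without replicate 1 of Ov4Carbo7 the change was 1.23 with an adjusted p of 0.0618. The r between HAGLR and HOXD1 over the 15 samples was 0.93. In GENCODE v29, 58.1% of the exonic length of HOXD1 and 13.8% of that of HAGLR overlaps other genes. Each overlaps the other on the opposite strand. Whether the authors counted by strand is not given in the sources used here, so reads where the pair overlaps cannot be told apart.

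HOXD8, a central gene, gave -6.69, -6.60 and -6.45 in the parental samples, 1.24, 1.81 and 0.69 in Ov4Cis and -7.13, -6.60 and -6.69 in Ov4Carbo. It gave -5.55, -5.67 and -4.52 in Ov4Carbo4 and -5.27, -6.37 and -4.17 in Ov4Carbo7. Only the Ov4Cis samples were above log2 RPKM 0, so HOXD8 did not share the Ov4Carbo4 level of HAGLR. Its change in Ov4Cis against the parental line was 7.83 (SE 0.47, adjusted p = 9.66e-08). With 1 added to each RPKM this was 1.75. In Ov4Carbo4 and Ov4Carbo7 it was called higher than in the parental line by 1.33 and 1.31 (adjusted p = 0.04 and 0.0408), which with 1 added to each RPKM were 0.02 and 0.03. Both calls were lost with a variance trend (adjusted p = 0.0833 and 0.0834), with quantile normalization (adjusted p = 0.083 and 0.108), with a term for the title series (adjusted p = 0.141 and 0.146) and without any 1 parental replicate (1.28 to 1.40 and 1.25 to 1.37) or replicate 1 of Ov4Cis (adjusted p = 0.0503 and 0.051). The Ov4Carbo4 call was also lost without replicate 1 (1.48) or 3 (0.97) of Ov4Carbo4 or replicate 1 of Ov4Carbo7 (adjusted p = 0.0515), and the Ov4Carbo7 call in a fit of the 2 lines alone (adjusted p = 0.086) or without replicate 1 (adjusted p = 0.0862) or 3 (0.76) of Ov4Carbo7. HOXD-AS2, an antisense transcript beside HOXD8, gave -7.68, -7.51 and -7.30 in the parental samples and -0.88, -0.02 and -0.77 in Ov4Cis, a change of 6.94 (adjusted p = 2e-07). With 1 added to each RPKM it was 0.75.

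HAGLROS, a transcript on the opposite strand of HAGLR that the naming rule does not take, was looked up after the values of HAGLR were seen. It gave -5.71, -4.01 and -3.62 in the parental samples, 4.02, 4.70 and 4.13 in Ov4Cis and -1.05, -1.0 and -1.88 in Ov4Carbo. It gave 2.48, 2.12 and 2.32 in Ov4Carbo4 and -2.27, -4.89 and -2.90 in Ov4Carbo7. The order of its line means was that of HAGLR, with the Ov4Cis and Ov4Carbo4 samples above log2 RPKM 0 and all others below. In GENCODE v29, 36.8% of the exonic length of HAGLROS overlaps HAGLR. With the strand setting not given, reads of the pair cannot be told apart there. Of 5 genes listed as flanking the HOXD cluster, 4 are in the table. LNPK, an endoplasmic reticulum protein gene, was higher in Ov4Carbo7 than in the parental line (4.98 ± 0.27 against 3.37 ± 0.03, log2 fold change 1.61, SE 0.16, adjusted p = 7.84e-06). In that line HOXD1, HOXD8 and HOXD-AS2 were also called higher, by 1.56, 1.31 and 1.36, but at low means of -4.92, -5.27 and -6.13. With 1 added to each RPKM these changes were 0.03, 0.03 and 0.01. HAGLR was not called (1.24, adjusted p = 0.0719).

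The HOXC genes were low in every line, and Ov4Carbo4 held the highest values of HOXC8 and HOXC9. HOXC9, a posterior gene, gave -1.46, -1.0 and -0.98 in the parental samples, -2.80, -2.55 and -2.29 in Ov4Cis and -2.60, -1.45 and -1.74 in Ov4Carbo. It gave 0.44, 0.22 and 0.38 in Ov4Carbo4 and -1.38, -1.91 and -1.60 in Ov4Carbo7. The Ov4Carbo4 samples were the only ones above log2 RPKM 0, and above all the others. HOXC9 was higher in Ov4Carbo4 than in Ov4Carbo by 2.28 (SE 0.26, adjusted p = 3.83e-05) and than in the parental line by 1.49 (adjusted p = 0.000641), and lower in Ov4Carbo7 than in Ov4Carbo4 (-1.98, adjusted p = 4.83e-05). On the log2(RPKM + 1) scale these were 0.84, 0.64 and -0.78, under the fold limit.

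HOXC10, another posterior gene, gave -0.06, 0.49 and 0.68 in the parental samples, -1.54, -1.25 and -1.68 in Ov4Cis and -2.83, -0.71 and -1.43 in Ov4Carbo. It gave 0.26, 0.65 and -0.19 in Ov4Carbo4 and -0.80, -1.37 and -1.02 in Ov4Carbo7. The parental and Ov4Carbo4 samples overlapped and lay above those of the other 3 lines. HOXC10 was lower than in the parental line in Ov4Cis (-1.86, SE 0.42, adjusted p = 0.00409), in Ov4Carbo (-2.03, adjusted p = 0.00311) and in Ov4Carbo7 (-1.43, adjusted p = 0.0162). With 1 added to each RPKM these changes were -0.76, -0.76 and -0.64, under the fold limit. The Ov4Carbo7 change was lost without replicate 2 of Ov4Carbo7 (-1.28, adjusted p = 0.0586) or replicate 3 of the parental line (adjusted p = 0.0584), and with a term for the title series it was 0.33 (adjusted p = 0.646). The Ov4Carbo call was lost in a fit of the 2 lines alone (adjusted p = 0.054). Replicate 1 of Ov4Carbo was the lowest of its line at -2.83.

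HOXC6, a central gene, gave -0.68, -0.48 and -0.31 in the parental samples, 0.84, 0.54 and 0.71 in Ov4Cis and 0.02, 0.66 and -0.25 in Ov4Carbo. It gave 0.62, 0.45 and 0.67 in Ov4Carbo4 and 0.37, 0.09 and -0.04 in Ov4Carbo7. Every resistant sample was above every parental one, but the change was called only in Ov4Cis (1.19, SE 0.20, adjusted p = 0.000513) and Ov4Carbo4 (1.07, adjusted p = 0.00114), the latter not without replicate 1 of the parental line (0.98). In Ov4Carbo and Ov4Carbo7 it was 0.63 each, with adjusted p of 0.0295 and 0.0239. With 1 added to each RPKM the Ov4Cis and Ov4Carbo4 changes were 0.61 and 0.54, under the fold limit. HOXC8 and HOXC4 ranged from -4.17 to 0.25 and from -7.00 to -1.08 over the samples.

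**Figure D3:**
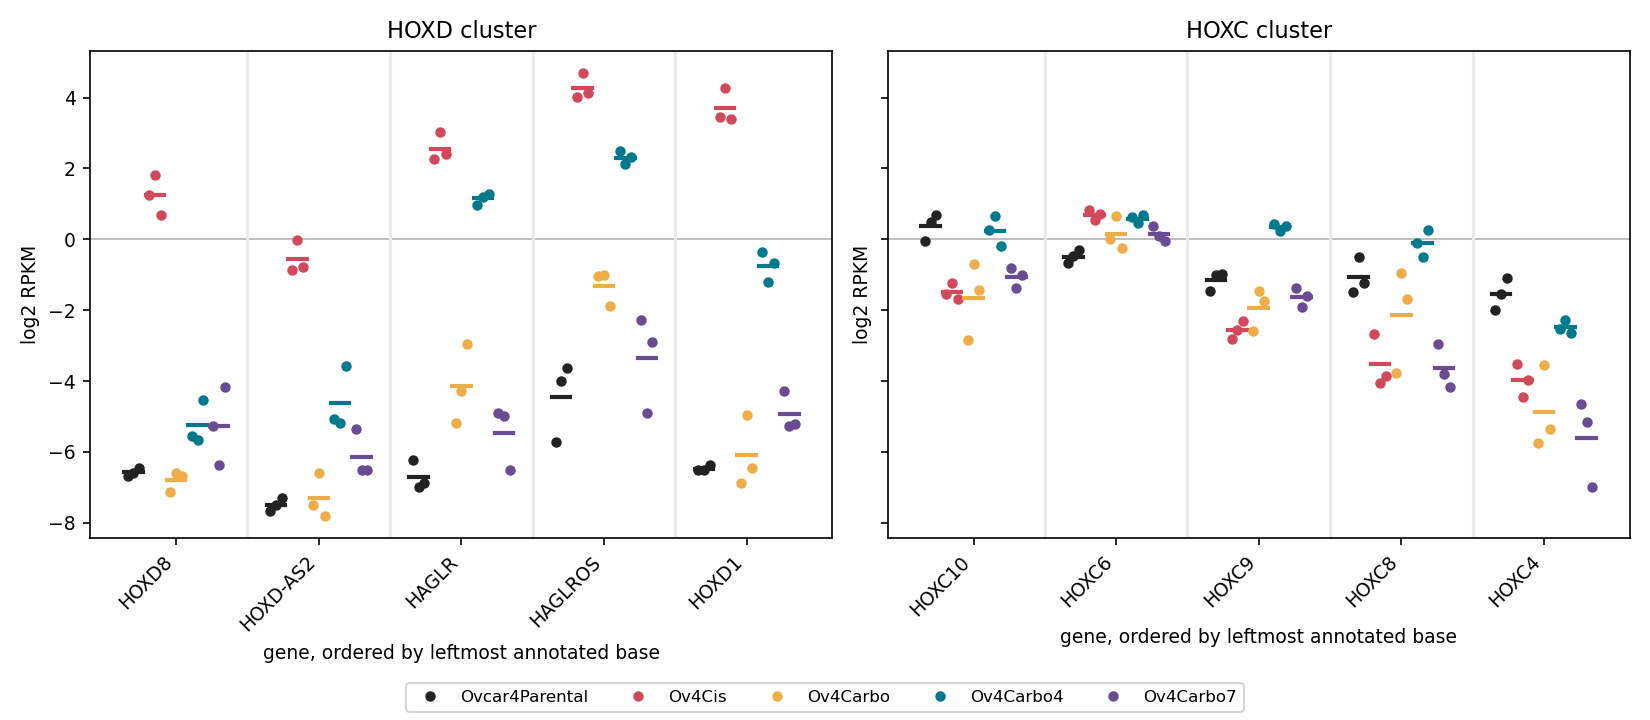
Log2 RPKM (vertical axis) of the HOXD and HOXC genes and transcripts, with HAGLROS beside them (horizontal axis, by leftmost annotated base), with 3 points per line and a bar at the mean. HOXD1, HAGLR and HAGLROS are highest in Ov4Cis and next in Ov4Carbo4, HOXD8 and HOXD-AS2 are highest in Ov4Cis, and HOXC9 is highest in Ov4Carbo4.

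The HOXA cluster was at moderate levels in every line and highest in Ov4Cis. Summed RPKM of the 11 coding genes was 16.7 ± 2.97 in the parental line, 55.7 ± 0.50 in Ov4Cis, 38.7 ± 2.13 in Ov4Carbo7, 26.5 ± 1.09 in Ov4Carbo and 17.1 ± 0.75 in Ov4Carbo4. Of the 15 HOXA members 10 were called higher in Ov4Cis, 8 in Ov4Carbo7, 6 in Ov4Carbo and 1 in Ov4Carbo4 than in the parental line, against 8.46%, 9.26%, 5.76% and 7.43% of all genes. The 1 of 15 in Ov4Carbo4 is near the share of all genes. In each line 1 was called lower, HOXA10-AS in Ov4Cis and Ov4Carbo7 and HOXA13 in Ov4Carbo and Ov4Carbo4. Of all genes 7.41%, 7.75%, 6.93% and 7.70% were called lower in these lines, in that order. The 1 of 15 is near those shares. Of the genes listed as flanking the cluster, SNX10, a sorting nexin gene, was higher in Ov4Cis (1.52, SE 0.15, adjusted p = 7.55e-06) and Ov4Carbo7 (1.14, adjusted p = 8.29e-05), and HIBADH, of valine breakdown, was lower in Ov4Carbo4 (-1.88, SE 0.19, adjusted p = 9.74e-06).

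HOXA11, a posterior gene of the limb and uterus, gave -1.05, -0.55 and -0.15 in the parental samples and 3.95, 4.10 and 3.98 in Ov4Cis. It gave 1.14, 1.19 and 1.19 in Ov4Carbo, 1.30, 1.12 and 1.07 in Ov4Carbo4 and 2.07, 2.21 and 2.26 in Ov4Carbo7. The lines fell into 4 levels that did not overlap, parental, then Ov4Carbo with Ov4Carbo4, then Ov4Carbo7, then Ov4Cis. The fold over the parental line was 24.1 in Ov4Cis (log2 4.59, SE 0.17, adjusted p = 1.53e-09), 3.38 in Ov4Carbo (adjusted p = 1.4e-05), 3.36 in Ov4Carbo4 (adjusted p = 8.3e-06) and 6.79 in Ov4Carbo7 (adjusted p = 2.27e-07). Ov4Carbo4 and Ov4Carbo did not differ beyond their spread (-0.01, SE 0.17, adjusted p = 0.975). Ov4Carbo7 was higher than Ov4Carbo by 1.01 (adjusted p = 0.000773), close to the fold limit, and fell to between 0.96 and 0.99 without replicate 1 of Ov4Carbo or replicates 2 or 3 of Ov4Carbo7.

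HOXA11-AS shares its promoter region with HOXA11, as the second window shows, and shared some of its changes. It gave 0.49, 1.01 and 0.41 in the parental samples, 3.36, 2.90 and 2.97 in Ov4Cis and 2.42, 2.00 and 1.96 in Ov4Carbo7. It gave 0.68, 1.13 and 0.82 in Ov4Carbo and 0.47, 0.98 and 0.64 in Ov4Carbo4. The Ov4Cis and Ov4Carbo7 samples lay above all others, while Ov4Carbo and Ov4Carbo4 overlapped the parental line, unlike HOXA11. HOXA11-AS rose by 2.44 in Ov4Cis (SE 0.21, adjusted p = 1.65e-06) and by 1.49 in Ov4Carbo7 (adjusted p = 0.000101), and was not called in Ov4Carbo (0.24, adjusted p = 0.394) or Ov4Carbo4 (0.06, adjusted p = 0.85). The r of the pair over the 15 samples was 0.88. In GENCODE v29, 59.3% of the exonic length of HOXA11-AS and 31.1% of that of HOXA11 overlaps another gene, and each overlaps the other on the opposite strand, so with the strand setting not given their reads cannot be told apart there.

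HOXA10, a posterior gene needed in the uterus, gave -0.03, 0.23 and 0.03 in the parental samples, 2.80, 2.90 and 2.78 in Ov4Cis and 1.33, 1.07 and 1.02 in Ov4Carbo. It gave 0.96, 0.73 and 0.80 in Ov4Carbo4 and 2.22, 1.93 and 2.11 in Ov4Carbo7. The 5 lines did not overlap, and the order of their means was that of HOXA11. The changes were 2.75 in Ov4Cis (SE 0.12, adjusted p = 4.37e-09), 1.06 in Ov4Carbo (adjusted p = 3.22e-05), 2.01 in Ov4Carbo7 (adjusted p = 1.34e-07) and 0.75 in Ov4Carbo4 (adjusted p = 0.00028), the last under the fold limit. The change in Ov4Carbo was 0.97 without replicate 1 of Ov4Carbo, and 0.97 with a term for the title series. The r between HOXA10 and HOXA11 was 0.97 over the 15 samples.

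HOXA10-AS had lower means in the resistant lines than in the parental line, and was called lower in Ov4Cis and Ov4Carbo7, while the means of HOXA10 and HOXA11 were higher. It gave 1.72, 1.90 and 1.96 in the parental samples, -0.30, 0.28 and 0.14 in Ov4Cis and 0.61, 1.74 and 1.65 in Ov4Carbo. It gave 1.21, 0.95 and 0.77 in Ov4Carbo4 and 0.81, 0.38 and 0.60 in Ov4Carbo7. The parental samples lay above those of every line except Ov4Carbo, whose range overlapped theirs, and the Ov4Cis samples were the lowest. HOXA10-AS fell by 1.82 in Ov4Cis (SE 0.26, adjusted p = 0.000153) and by 1.27 in Ov4Carbo7 (adjusted p = 0.002). With a term for the title series the Ov4Carbo7 change was -0.18 (adjusted p = 0.69). Over the 15 samples its r was -0.87 with HOXA10, -0.87 with HOXA11 and -0.21 with HOXA9, the neighbour on its other side. In GENCODE v29, 62.3% of the exonic length of HOXA10-AS overlaps other genes, HOXA10 and HOXA9 among them on the opposite strand, so the strand limit stated for HOXD1 holds for these pairs.

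HOXA13, the most posterior HOXA gene, used in the distal limb and the lower genital tract, gave -0.54, 0.09 and 0.78 in the parental samples. It gave 1.55, 1.57 and 1.56 in Ov4Cis, -0.31, -1.42 and -1.44 in Ov4Carbo, -1.48, -1.13 and -1.16 in Ov4Carbo4 and 1.14, 1.40 and 1.75 in Ov4Carbo7. The Ov4Cis and Ov4Carbo7 samples lay above all others, the Ov4Carbo4 samples lay below the parental ones, and the Ov4Carbo samples overlapped them through replicate 1. HOXA13 rose by 1.45 in Ov4Cis (SE 0.33, adjusted p = 0.00437) and by 1.32 in Ov4Carbo7 (adjusted p = 0.00691), and fell by 1.17 in Ov4Carbo (adjusted p = 0.0177) and by 1.37 in Ov4Carbo4 (adjusted p = 0.00614). With 1 added to each RPKM these changes were 0.90, 0.81, -0.49 and -0.58, under the fold limit. The Ov4Carbo call was lost without replicate 2 of Ov4Carbo (-0.99, adjusted p = 0.0681), replicate 3 of Ov4Carbo (-0.98, adjusted p = 0.0636) or replicate 3 of the parental line (-0.83, adjusted p = 0.0763), and the Ov4Carbo7 call without replicate 1 of the parental line (0.99, adjusted p = 0.0299). With a term for the title series the Ov4Carbo7 change was 0.20 (adjusted p = 0.789), and in a fit of the 2 lines alone the Ov4Carbo call was lost (adjusted p = 0.131).

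The anterior HOXA genes were not clearly apart from the posterior ones. Over the 15 samples HOXA3 had an r of 0.84 with HOXA2 and 0.93 with HOXA4, beside 0.86 with HOXA10 and 0.77 with HOXA11. HOXA3, an anterior gene of the neck and hindbrain, gave 1.30, 1.40 and 1.85 in the parental samples, 3.31, 2.99 and 3.25 in Ov4Cis, 2.50, 2.66 and 2.61 in Ov4Carbo, 1.39, 1.36 and 1.27 in Ov4Carbo4 and 3.40, 3.10 and 3.06 in Ov4Carbo7. Ov4Carbo4 overlapped the parental line, and the samples of the other 3 lines lay above both. The changes against the parental line were 1.67 in Ov4Cis (SE 0.15, adjusted p = 2.37e-06), 1.08 in Ov4Carbo (adjusted p = 0.000166), -0.18 in Ov4Carbo4 (adjusted p = 0.375) and 1.67 in Ov4Carbo7 (adjusted p = 2.94e-06). The Ov4Carbo change was 0.97 without replicate 1 of the parental line. HOXA5, a central gene of the lung and trunk, gave 0.74, 1.15 and 1.53 in the parental samples, 2.48, 2.49 and 2.39 in Ov4Cis, 1.69, 1.56 and 1.63 in Ov4Carbo, 1.14, 1.04 and 1.00 in Ov4Carbo4 and 2.48, 2.26 and 2.20 in Ov4Carbo7. Its Ov4Cis and Ov4Carbo7 samples lay above the rest, and Ov4Carbo4 overlapped the parental line. It was called higher in Ov4Cis (1.31, SE 0.16, adjusted p = 3.46e-05) and Ov4Carbo7 (1.17, adjusted p = 8.03e-05), the latter at 0.98 without replicate 1 of the parental line.

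HOXA2, an anterior gene of the head, gave -0.60, 0.56 and 0.51 in the parental samples, 1.56, 1.44 and 1.65 in Ov4Cis, 1.57, 2.35 and 1.28 in Ov4Carbo, 0.54, 0.57 and 0.42 in Ov4Carbo4 and 1.94, 1.40 and 1.40 in Ov4Carbo7. HOXA4, at the anterior trunk, gave -1.99, -0.91 and -0.74 in the parental samples, 0.35, 0.79 and 0.59 in Ov4Cis, -0.36, 0.39 and 0.03 in Ov4Carbo, -0.75, -1.02 and -1.37 in Ov4Carbo4 and 1.00, 0.46 and 1.07 in Ov4Carbo7. Both shared the pattern of HOXA3, with the Ov4Carbo4 samples overlapping the parental ones and the other 3 lines above both. HOXA2 rose by 1.39 in Ov4Cis (SE 0.31, adjusted p = 0.00358), 1.57 in Ov4Carbo (adjusted p = 0.00221) and 1.42 in Ov4Carbo7 (adjusted p = 0.00277), and HOXA4 by 1.79 (adjusted p = 0.00064), 1.23 (adjusted p = 0.00952) and 2.06 (adjusted p = 0.000209). The HOXA4 change in Ov4Carbo was 0.84 without replicate 1 of the parental line. In a fit of the 2 lines alone the Ov4Carbo calls of HOXA2 and HOXA4 were lost (adjusted p = 0.0516 and 0.0785), as was that of HOXA2 in Ov4Carbo7 with a term for the title series (adjusted p = 0.0532).

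HOTAIRM1, a non-coding RNA at the anterior end of the cluster, gave 2.93, 2.80 and 2.96 in the parental samples, 3.59, 2.88 and 3.16 in Ov4Cis, 3.20, 4.33 and 4.0 in Ov4Carbo, 2.49, 2.83 and 2.83 in Ov4Carbo4 and 3.95, 3.70 and 3.64 in Ov4Carbo7. The Ov4Carbo7 samples of HOTAIRM1, and all those of Ov4Carbo, lay above the parental ones, while those of Ov4Carbo4 overlapped them. HOXA-AS2, an antisense RNA beside HOXA3, gave 0.80, 1.11 and 0.82 in the parental samples, 2.42, 2.49 and 2.45 in Ov4Cis, 1.69, 2.10 and 2.20 in Ov4Carbo, -0.03, 0.42 and 0.19 in Ov4Carbo4 and 1.05, 1.16 and 1.30 in Ov4Carbo7. HOXA-AS2 thus overlapped the parental line in Ov4Carbo7 while HOXA3 did not. It was called higher in Ov4Cis (1.55, SE 0.15, adjusted p = 5.89e-06) and in Ov4Carbo (1.09, adjusted p = 0.000197), the latter at 0.99 without replicate 3 of Ov4Carbo.

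HOXA2, HOXA3 and HOXA4 were called lower in Ov4Carbo4 than in Ov4Carbo, at -1.22, -1.25 and -1.07 (adjusted p = 0.0078, 4.71e-05 and 0.0159). HOTAIRM1 and HOXA-AS2 were lower too, at -1.13 (SE 0.25, adjusted p = 0.00362) and -1.80 (SE 0.15, adjusted p = 3.86e-06). In the cluster 6 of the 15 members were called lower in that comparison, against 6.64% of all genes. None of the 15 was called higher, which is near the 7.58% of all genes. Without replicate 2 of Ov4Carbo the changes were -0.91 for HOXA2, -0.88 for HOXA4 and -0.89 for HOTAIRM1. That of HOXA4 was -0.91 without replicate 3 of Ov4Carbo4. With a term for the title series these calls were lost too, at -1.06 for HOXA2 (adjusted p = 0.104), -0.69 for HOXA4 (adjusted p = 0.263) and -0.48 for HOTAIRM1 (adjusted p = 0.172). Compared directly with Ov4Carbo4, Ov4Carbo7 had 10 of the 15 HOXA members called higher and 0 lower, against 11.1% and 9.86% of all genes. Among them was HOXA3, by 1.85 (SE 0.15, adjusted p = 1.04e-06). Against Ov4Carbo, the Ov4Carbo7 changes of HOXA2, HOXA3, HOXA4 and HOTAIRM1 were -0.15, 0.59, 0.82 and -0.08, none of them called. HOXA-AS2 was lower there too, at -0.82, under the fold limit. In the opposite direction, 4 HOXC and 3 HOXD members were called lower in Ov4Carbo7 than in Ov4Carbo4, and 0 were called higher. With 1 added to each RPKM, 5 of the 35 members were called in this comparison, against 10.5% of all genes. Of these, 4 were higher and 1 was lower, HAGLR at -1.66.

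**Figure D4:**
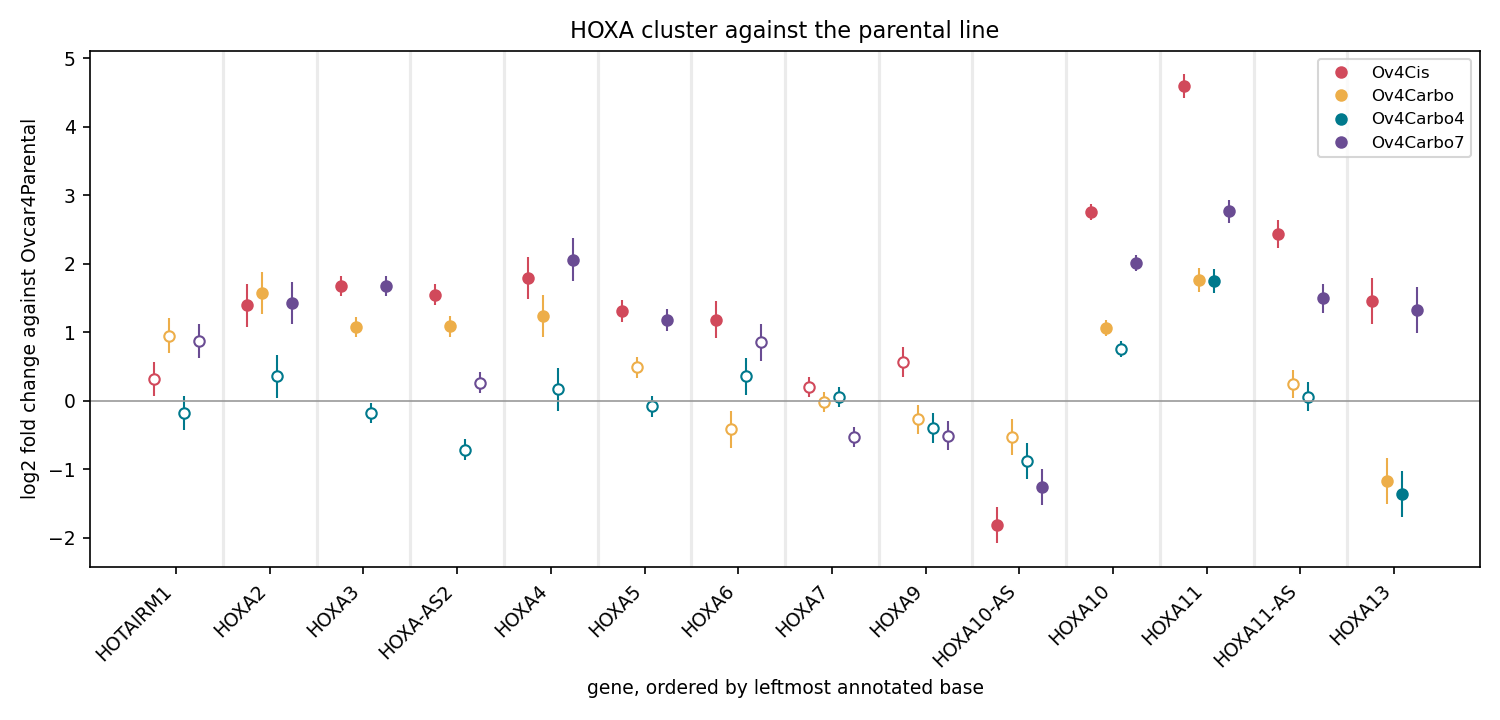
Log2 fold change against the parental line (vertical axis, bars are SEs) of the HOXA genes and transcripts reported (horizontal axis, by leftmost annotated base), with filled points for called changes and open points for others. HOXA11 is the highest point, at 4.59 in Ov4Cis, HOXA10-AS lies below 0 in each line, and HOXA13 is above 0 in Ov4Cis and Ov4Carbo7 and below 0 in Ov4Carbo and Ov4Carbo4.

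Genes known to act with or upon HOX genes were followed from lists. Of 12 TALE cofactors (PBX, MEIS and related homeodomain proteins that bind DNA with HOX proteins), 9 are in the table, and the counts called higher and lower against the parental line were 0 and 1 in Ov4Cis, 1 and 0 in Ov4Carbo, 2 and 0 in Ov4Carbo4, and 0 and 3 in Ov4Carbo7. Of all genes, 15.9%, 12.7%, 15.1% and 17.0% were called in either direction in these 4 lines, which is the background for this list and those that follow. PBX3 was at 1.53 ± 0.13 in the parental line and 3.23 ± 0.06 in Ov4Carbo4 (log2 fold change 1.70, SE 0.16, limma adjusted p = 5.09e-06). PKNOX1 was higher in Ov4Carbo by 1.25 (SE 0.15, adjusted p = 4.97e-05), and PBX4 lower in Ov4Cis (-1.04, SE 0.18, adjusted p = 0.000581).

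Of 32 Polycomb genes 31 are in the table. Against the parental line 0 were called in Ov4Cis, Ov4Carbo and Ov4Carbo7, and 1 in Ov4Carbo4, CBX2, a chromodomain subunit that was higher by 1.36 (5.43 ± 0.23 against 4.08 ± 0.29, SE 0.22, adjusted p = 0.000439). Of 25 Trithorax and COMPASS genes 25 are in the table, and 1 was called higher in Ov4Cis, Ov4Carbo and Ov4Carbo7 and 0 in Ov4Carbo4. KDM6A, a histone demethylase, was lower in Ov4Cis (-1.29, adjusted p = 9.11e-06). In the 3 lines the gene called higher was MLLT3, a reader in the complexes that elongate transcription, at -0.10 ± 0.08 in the parental line, 1.69 ± 0.47 in Ov4Cis, 1.53 ± 0.32 in Ov4Carbo, 2.30 ± 0.10 in Ov4Carbo7 and -0.59 ± 0.31 in Ov4Carbo4. Its rises were 1.78 (SE 0.23, adjusted p = 5.31e-05), 1.63 (adjusted p = 0.000188) and 2.40 (adjusted p = 4.94e-06). MLLT3 was thus above the parental level in the same 3 lines as HOXA3, and a link between these genes was not tested.

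Of 22 genes of retinoic acid metabolism and signalling, a pathway that regulates HOX genes, 18 are in the table. The counts called higher and lower were 1 and 4 in Ov4Cis, 3 and 6 in Ov4Carbo, 2 and 5 in Ov4Carbo4, and 3 and 6 in Ov4Carbo7, beside 8.46% and 7.41%, 5.76% and 6.93%, 7.43% and 7.70%, and 9.26% and 7.75% of all genes. ALDH1A1, which makes retinoic acid, was at -0.58 ± 1.17 in the parental line, 4.84 ± 0.44 in Ov4Carbo (5.41, SE 0.46, adjusted p = 4.11e-06) and -1.04 ± 0.21 in Ov4Carbo4. DHRS3, which reduces retinal, was at 0.29 ± 0.47 in the parental line and -2.47 ± 0.26 in Ov4Carbo4 (-2.76, SE 0.71, adjusted p = 0.00799). CRABP1, which binds retinoic acid, was at 0.20 ± 0.44 in the parental line and -5.77 ± 1.06 in Ov4Carbo7 (-5.97, SE 0.81, adjusted p = 8.67e-05). Of 17 genes upstream of HOX genes or of the ParaHox group, 6 are in the table, and the counts called higher and lower were 2 and 1, 2 and 0, 4 and 0, and 2 and 1 in the same order of lines. EN2, a homeobox gene outside the HOX clusters, was higher in all 4 resistant lines, by 8.85, 7.73, 9.39 and 7.23 (SE 0.18 each, adjusted p = 1.38e-11, 1.46e-10, 6.7e-12 and 3.29e-10), from a parental level of -6.33 ± 0.37.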

How the data were processed

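PolyA-selected RNA of 15 samples was sequenced, per the labels' protocols. The submitters' processing notes name BWA 0.7.15-r1140, HTSeq and the builds hg19 and GRCh37, and the strand setting is not given in the sources used here. The authors deposited log2 RPKM after conditional quantile normalization (cqn), per the file name; the rule of a threshold named there is not given. Base 2 was checked on the values. Summed RPKM was computed as 2 to the deposited log2 value.

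The table holds 16604 genes, 0 missing values and 0 identical sample pairs. Sample medians were all 2.77. Read depth is unknown, so the spread between 3 replicates per line is the only measure of precision. Differences in total RNA per cell cannot be measured after this normalization. Ensembl identifiers were matched to symbols for 16448 genes. Exon overlap came from GENCODE v29 and promoter windows from RefSeq (GRCh38.p14). No coordinates were joined to the deposited values. Other members also share exonic length with genes on the opposite strand, so the strand limit stated for HOXD1 holds for them. Among these are HOXA7 (62.5% of exonic length overlaps other genes), HOXA4 (47.3%), HOTAIRM1 (44.9%) and HOXB6 (32.9%).

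A limma 3.58.1 model (R 4.3.3; lmFit, eBayes, two-sided) with 1 coefficient per line was fitted to all genes and samples, with Benjamini-Hochberg adjustment over all genes in each of 8 contrasts. A call needed a log2 fold change of 1 or more in either direction beside an adjusted p below 0.05. On simulated data drawn for Ov4Cis against the parental line, 200 of 16604 genes were changed by 2 log2 units. Of these 188 were recovered, with 5 false calls among the unchanged genes. Changes nearer the fold limit were not simulated. Members were given by sample where a line mean reached log2 RPKM 0 and a call separated the 3 values of 1 line from the 3 of the other; list genes were named where called in all 4 resistant lines in 1 direction, or largest of their list in a contrast, with a line mean of at least log2 RPKM 0. Some items are counted but not reported here by name. The members, lists and marker genes were chosen with earlier results of these data known. Alternatives were a variance trend, quantile normalization, a filter at mean log2 RPKM 1 (12037 genes), a pseudocount of 1, 2-line fits, a term for the title series, a replicate block and leaving out each replicate. Tables and figures used Python 3.11.15, pandas 2.3.3 and matplotlib 3.10.9.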

Additional observations from a re-analysis of the deposited data

Results flagged for a closer look

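HOXA13 was called higher than in the parental line in Ov4Cis and Ov4Carbo7 and lower in Ov4Carbo and Ov4Carbo4, so the lines differed in direction and the differences between them were tested directly. HOXA13 was higher in Ov4Carbo7 than in Ov4Carbo by 2.49 (limma adjusted p = 0.000154), higher in Ov4Carbo7 than in Ov4Carbo4 by 2.68 (adjusted p = 3.26e-05) and higher in Ov4Cis than in Ov4Carbo by 2.62 (adjusted p = 7.9e-05). In each of these the 3 values of 1 line lay above the 3 of the other. With 1 added to each RPKM these differences were 1.30, 1.38 and 1.40, while each change against the parental line was under the fold limit. With a term for the title series the Ov4Carbo7 change against the parental line was 0.20. The call in Ov4Carbo against the parental line was lost in a fit of those lines alone.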

How the results depend on the processing

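With 1 added to each RPKM the counts of called members were 12, 1, 6 and 10 in the 4 resistant lines against the parental line, 11 in Ov4Carbo4 and 6 in Ov4Carbo7 against Ov4Carbo, 5 between Ov4Carbo7 and Ov4Carbo4, and 9 in Ov4Cis against Ov4Carbo. With genes of mean log2 RPKM 1 or more, which keeps 20 members and fewer genes tested, the counts were 10, 7, 8 and 13 against the parental line, 13 and 7 against Ov4Carbo, 9 between the single-cell lines and 5 in Ov4Cis against Ov4Carbo. A term for the title series, which rests on replicate 1 of Ov4Carbo, gave 15 in Ov4Carbo7 against the parental line (11 higher, 4 lower) and 17 in Ov4Carbo4 against Ov4Carbo (7 higher, 10 lower).

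Leaving out each replicate gave, against the parental line, 22 to 24 calls (Ov4Cis), 10 to 12 (Ov4Carbo), 14 to 16 (Ov4Carbo4) and 19 to 24 (Ov4Carbo7). The ranges were 18 to 23 and 8 to 14 for Ov4Carbo4 and Ov4Carbo7 against Ov4Carbo, 15 to 18 between those lines and 12 to 13 for Ov4Cis against Ov4Carbo. Of the 116 calls of described members, 56 were lost with 1 added to each RPKM, 6 in 2-line fits, 3 each with quantile normalization and a variance trend, and 14 with the series term, beside 1 more, HOXC10 in Ov4Carbo7 against the parental line, that reversed to 0.33; 57 of 1740 were lost on leaving out a replicate. The cause was not tested.

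With a replicate block all 116 calls held. The replicate numbers do not pair the samples: same-numbered deviations had correlations from -0.39 to 0.44, and 4 of 15 samples were most like their own number. Low values limit the HOXD genes, whose log2 changes start near the floor in the parental line. The HOXC genes are low too, but start above that floor.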
